A study of Mus musculus with 12 samples.

Results

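Reprogramming cultures of mouse fibroblasts were compared between day 4 of doxycycline (DOX) and the latest sampled day under DOX, to describe which genes switched on and off over this second stretch of the route to pluripotency. The comparison rests on 4 of the 12 arrays of the series: Mbd3+/+ cells (WT) at days 4 and 11, and Mbd3flox/- cells (flox/-, with a floxed and a deleted copy of Mbd3) at days 4 and 8. The arrays were chosen by genotype and stage, with earlier results of these data known. Both genotypes carried the DOX-inducible OSKM transgene, which encodes Oct4, Sox2, Klf4 and Myc, and all cultures were kept in a KSR-based ESC medium with LIF and a pair of kinase inhibitors (2i) on irradiated DR4 feeder fibroblasts. The late day differs between the genotypes (11 and 8), so a difference between their steps cannot be told apart from a difference in time. Each genotype and stage has 1 array, and the labels do not tell whether arrays share a culture, so the p-values below measure only the spread between these arrays. The WT day 8 array was left out, since its labels name both 8 and 4 days and it was reused from an earlier series.

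The fibroblast program is held by mesenchymal transcription factors, Hox genes that record position in the body, and genes of the extracellular matrix. Pluripotent mouse cells run on a network in which Oct4, Sox2 and Nanog act with the naive factors Esrrb, Tfcp2l1, Klf2, Tbx3 and Prdm14, and in which each factor helps to keep the others on. Work on OSKM reprogramming describes an early phase, in which the transgene drives proliferation and the loss of fibroblast genes, and a late phase, in which the endogenous pluripotency genes become active and cells no longer depend on the transgene. Mbd3 is a subunit of NuRD, a complex that joins a chromatin remodelling ATPase with histone deacetylases.

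A step is the log2 signal of the late array minus that of the day 4 array of the same genotype. The difference reported for a gene is the mean of both steps, with its standard error (SE) from a limma fit over 8 arrays, WT and flox/- at MEF (fibroblasts before DOX), day 4, late DOX and iPSC (induced pluripotent stem cell lines), with stage and genotype as terms. The 4 further arrays only add to the estimate of the spread, which then rests on 3 residual degrees of freedom. A gene was called at a Benjamini-Hochberg adjusted p under 0.05 over the 12610 genes tested. Signals near 4.68, the lower quartile of every array after normalization, lie close to background, and the fold from such a start is limited by it. Levels are compared between arrays for a gene, never between genes.

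The defining markers of pluripotent cells (Nanog, Zfp42, Esrrb, Dppa5a, Sox2 and Utf1) lay above the array median in 1 of 6 cases in WT day 4 and in 6 of 6 in WT day 11, with a median log2 signal of 5.18 and 11.65. In flox/- cells 3 of 6 lay above it at day 4 and 6 of 6 at day 8, with medians of 6.57 and 12.02. All 8 fibroblast markers (Col1a1, Col1a2, Col3a1, Thy1, Pdgfra, Postn, Lum and Dcn) stayed above the array median in WT day 4 and WT day 11, with medians of 11.10 and 10.41, while in flox/- cells their number went from 8 to 2 and their median from 8.98 to 5.97. Markers of macrophages had medians of 9.44 and 6.26 in WT and 6.19 and 5.24 in flox/- cells. Keratinocyte markers were near background on all 4 arrays except flox/- day 4, where 1 of 6 passed the array median, and the 3 trophoblast markers measured were below it on all 4. These arrays hold RNA of whole cultures, so fewer cells of a type and less RNA per cell cannot be told apart.

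Among the genes called higher in late DOX than at day 4 were Sox2, 3 naive pluripotency factors and 9 other markers of embryonic and pluripotent cells. Of the 12610 genes, 53 were called higher in late DOX (0.42%) and 7 were called lower (0.0555%), 60 in either direction (0.476%). The called rises ran from 2.58-fold (Zfp568) to 224-fold (Dppa5a), and the called falls from 2.84-fold (Syt11) to 7.13-fold (Foxd1). The median log2 signal of the 53 risen genes over the WT stages MEF, day 4, day 11 and iPSC was 5.35, 5.49, 8.88 and 9.36. Over the flox/- stages MEF, day 4, day 8 and iPSC the medians were 5.43, 6.06, 9.48 and 9.45. The day 4 medians were within 1 log2 unit of the MEF medians, while single genes were further up, such as Alpl at 6.05 in WT MEF and 8.93 in WT day 4. The 7 fallen genes had medians of 8.98, 9.59, 7.09 and 7.04 along the same 4 WT stages, and of 8.36, 9.37, 6.75 and 6.997 in flox/- cells.

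These calls depend on which arrays estimate the spread. With only the 4 DOX arrays in the limma fit, 0 genes were called in either direction, with 874 higher and 1219 lower at an unadjusted p under 0.05, where the 8 arrays gave 1158 and 1456. Without the WT day 4 array or without the flox/- day 4 array, 0 were called either way, with 901 and 1350 and with 1021 and 1029 higher and lower at an unadjusted p under 0.05, so every call below is lost there. In those fits day 4 is a lone array assumed to vary like the others. Without WT day 11, 112 were called higher and 67 lower, 35 and 3 of them among the 53 and 7. Without flox/- day 8, 12 were called higher, 7 of them among the 53, and 0 lower, and without either MEF array 12 and 0, or either iPSC array 7 and 0.

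Each genotype was also read on its own, without a test, by counting genes at least 2-fold apart. In WT 737 genes were higher (5.84%) and 737 lower (5.84%). In flox/- cells 965 were higher (7.65%) and 1519 lower (12%). The genes higher in both genotypes numbered 363 (2.88%), which is 49.3% of the WT genes and 37.6% of the flox/- genes. For those lower in both, 378 in number (3%), the shares were 51.3% of the WT genes and 24.9% of the flox/- genes. Across the 12610 genes the steps correlated with Pearson r = 0.54 and Spearman rho = 0.49, a description over genes that share arrays and are not independent replicates. A further 57 genes (0.452%) were at least 2-fold apart in opposite directions, 46 of them higher in WT late DOX and lower in flox/- late DOX.

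**Figure D1:**
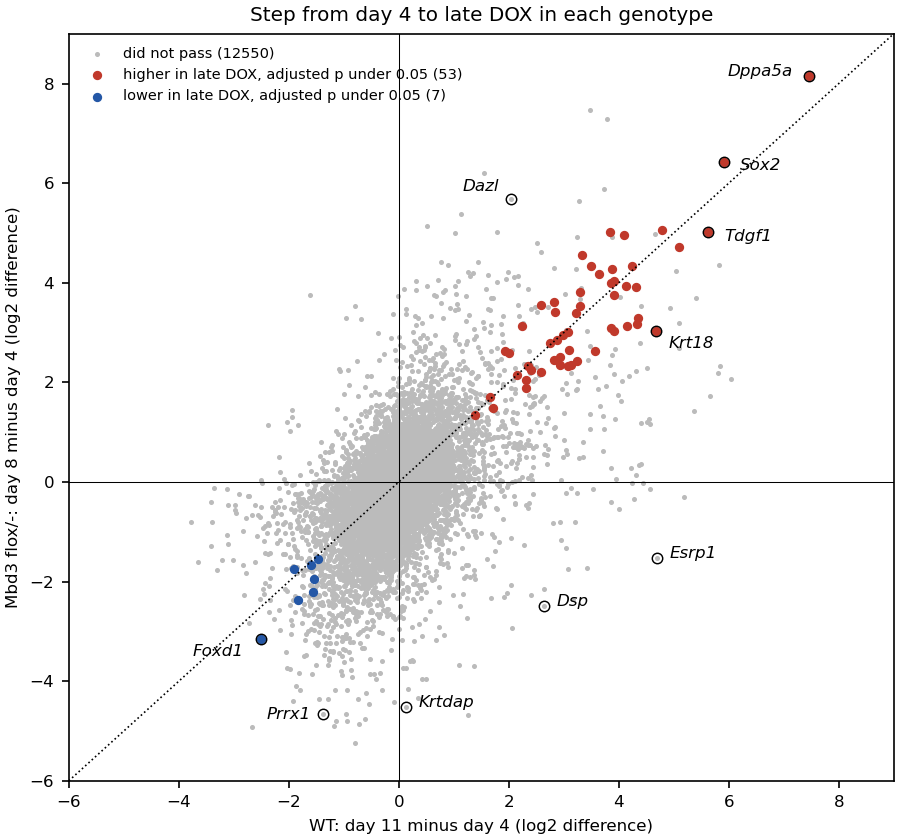
Step of every tested gene in WT (x axis, day 11 minus day 4, log2) against its step in flox/- cells (y axis, day 8 minus day 4, log2), with the 53 called rises in red, the 7 called falls in blue and the other 12550 genes in grey. The called genes lie near the dotted line of equal steps, while Esrp1 and Dsp lie right of 0 in WT and below 0 in flox/- cells.

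Dppa5a, which encodes a KH-domain protein that binds RNA in embryonic stem cells, rose most. Its log2 signal went from 5.01 to 12.47 in WT and from 4.84 to 12.99 in flox/- cells, and was 12.88 and 12.62 in the iPSC lines. Both day 4 arrays sat close to the lower quartile, and both late arrays were at the level of iPSC. The mean difference was 7.80 ± 0.24 SE (limma adjusted p = 0.002).

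Sox2, the pluripotency factor that binds DNA with Oct4, was low at day 4 although its gene is part of the transgene. In WT its signal was 5.48 before DOX, 6.005 at day 4 and 11.91 at day 11, and in flox/- cells 5.60 before DOX, 6.03 at day 4 and 12.46 at day 8. The late arrays lay about as high as iPSC, at 12.42 and 12.45. The rise was 6.17 ± 0.20 (adjusted p = 0.002), or 60.0-fold in WT and 86.3-fold in flox/- cells. Where the probes lie in the gene, and so whether they read transgene RNA, is not given in the sources used here.

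Tdgf1, which encodes the Nodal co-receptor Cripto, had signals of 5.89 and 11.50 in WT and of 7.24 and 12.26 in flox/- cells. It rose by 5.31 ± 0.31 (adjusted p = 0.014), and flox/- day 4 stood between its MEF value of 5.02 and its late value. Dppa2, a chromatin protein of pluripotent cells, went from 5.48 to 10.57 in WT and from 6.90 to 11.62 in flox/- cells (difference 4.91 ± 0.33, adjusted p = 0.016). Trap1a, an X-linked antigen gene, went from 4.63 to 8.47 and from 4.61 to 9.62 (4.43 ± 0.34, adjusted p = 0.024). Of these genes Tdgf1 and Dppa2 were already higher in flox/- day 4 than in WT day 4, and Trap1a was at background in both.

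Among the other large rises were genes with less familiar roles. Cecr2, a bromodomain protein of an ISWI remodelling complex, had almost equal steps of 3.91 and 4.04 (difference 3.98 ± 0.16, adjusted p = 0.005). Apoc1, an apolipoprotein gene, had steps of 4.32 in WT and 3.92 in flox/- cells (4.12 ± 0.18, adjusted p = 0.005). Rimklb, an amino acid ligase gene, had steps of 4.24 and 4.35 (4.29 ± 0.29, adjusted p = 0.016). The remaining genes of the 15 largest rises were Gm6083 (4.93), Arl14epl (4.08), Lrrc34 (4.04), Rbpms2 (3.95) and Zfp459 (3.93), together with Tfcp2l1 and Prdm14 described below. Rbpms2, an RNA-binding protein gene, differed from the rest in its course: its WT signal was 8.52 in MEF, 6.91 at day 4 and 10.24 at day 11, and its flox/- signal 7.71, 6.06 and 10.62, so that day 4 was its lowest stage in both genotypes.

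Smaller called rises came with steps of close size in the genotypes. Alpl, the alkaline phosphatase used as a stain for pluripotent colonies, rose 7.31-fold in WT and 7.19-fold in flox/- cells. Calcoco2, an autophagy receptor gene, rose 8.41-fold and 8.02-fold, and Cd59b, a complement inhibitor gene, 5.10-fold and 5.01-fold. Mycn, the Myc family member of embryonic cells, went from 6.35 to 9.18 in WT and from 6.13 to 9.74 in flox/- cells (3.22 ± 0.25, adjusted p = 0.024). Over the 60 called genes the WT and flox/- steps differed by a median of 0.44 log2 units and by at most 1.65, a closeness that the test itself favours, since it sets the difference against the spread. The genes nearest the threshold inside it were Otx2 (adjusted p = 0.049), Zfp568 and Krt18, both at 0.0494, and those just outside were Rragd and Cyp2b23, both at 0.0507, and Slc39a4 at 0.0508.

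**Figure D2:**
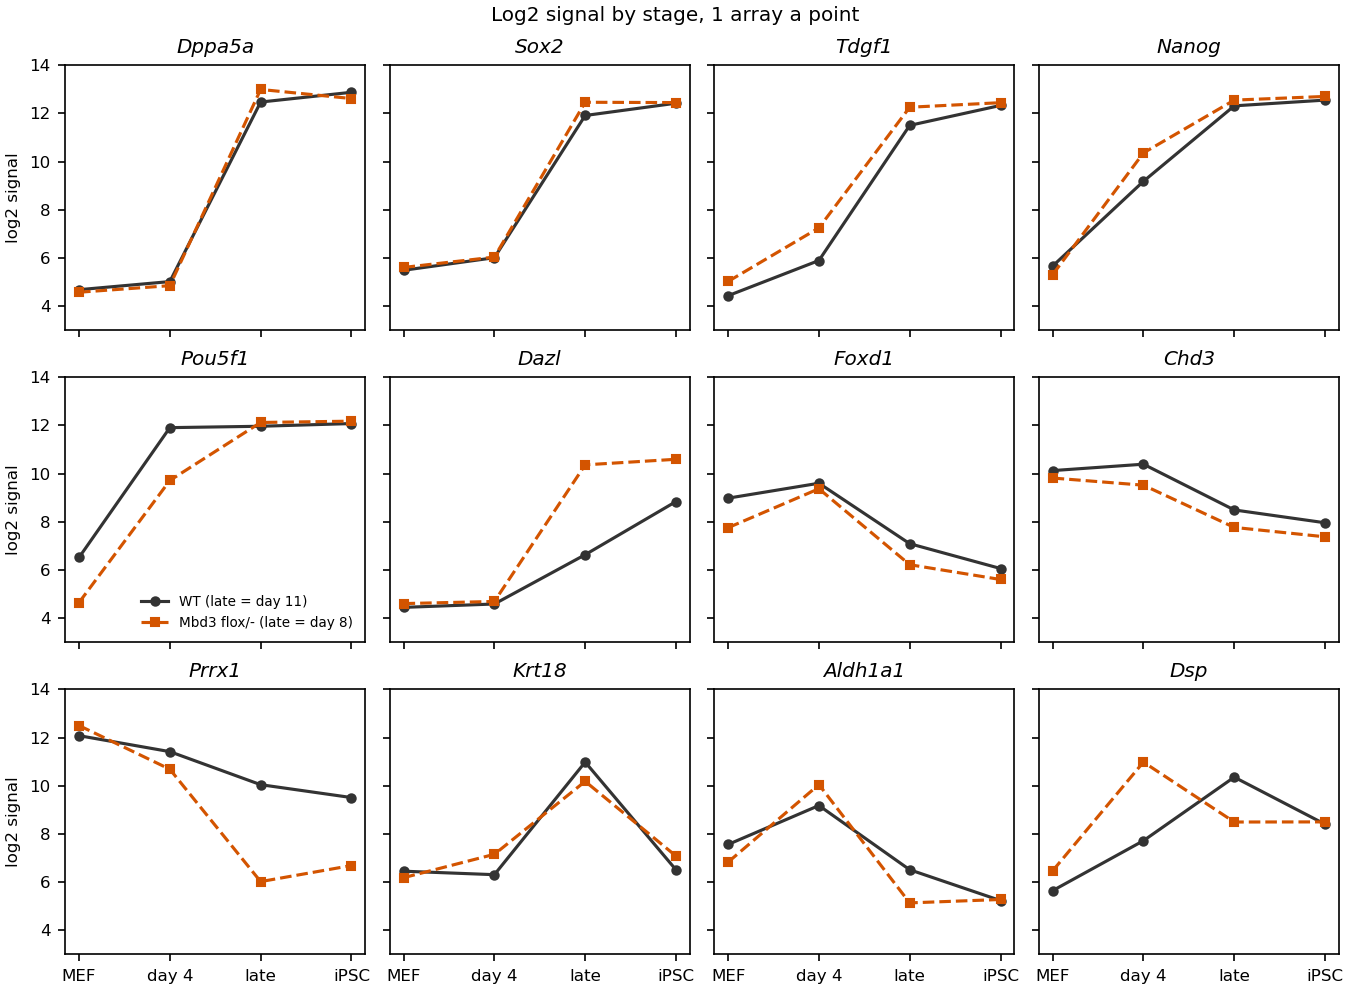
Log2 signal (y axis) of 12 genes at MEF, day 4, late DOX and iPSC (x axis), 1 array a point, with WT as black circles (late is day 11) and flox/- as orange squares (late is day 8). Dppa5a and Sox2 stay near their MEF values at day 4 and are at iPSC values in late DOX, Krt18 is highest in late DOX, Aldh1a1 is highest at day 4, and Dsp moves in opposite directions in the genotypes.

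The reprogramming factors did not move together. Of 4 factors only Sox2 was called, against 0.42% of all genes tested, and the median step of the 4 was -0.27 in WT and 2.84 in flox/- cells. Pou5f1, which encodes Oct4, had signals of 11.91 and 11.97 in WT and of 9.71 and 12.12 in flox/- cells, so that WT day 4 already equalled the late arrays. Its difference was 1.23 ± 0.69 (adjusted p = 0.353). Klf4, a transgene factor that also belongs to the naive network, went from 10.20 to 9.51 in WT and from 7.20 to 10.46 in flox/- cells (1.29 ± 1.07, adjusted p = 0.516). Myc went from 10.86 to 10.26 in WT and from 6.88 to 8.21 in flox/- cells (0.37 ± 1.09, adjusted p = 0.868). For both genes flox/- day 4 was the lowest of the 4 DOX arrays and below the flox/- MEF values of 9.49 for Klf4 and 9.56 for Myc. Without the flox/- day 4 array the difference was -0.59 for Klf4 and -1.35 for Myc, and without WT day 11 it was -0.07 for Myc.

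Nanog, a core pluripotency factor that the transgene does not carry, was part of the way up at day 4. Over the WT stages MEF, day 4, day 11 and iPSC its signal was 5.66, 9.18, 12.31 and 12.55, and over the matching flox/- stages 5.30, 10.36, 12.55 and 12.70. Both genotypes thus had a day 4 value between MEF and late DOX, with steps of 3.14 and 2.19. The difference of 2.66 ± 0.37 had an adjusted p of 0.0695 and did not pass. Nanog has a well-described composite element upstream of its start at which Sox2 and Oct4 bind side by side. Its 250 bases before the start site are shown to mark that element, whose part in the Nanog steps was not tested. They were taken from RefSeq (GRCm38.p6, plus strand, chr6:122707315-122707564), in lower case with the Sox and Oct words in capitals.
Nanog: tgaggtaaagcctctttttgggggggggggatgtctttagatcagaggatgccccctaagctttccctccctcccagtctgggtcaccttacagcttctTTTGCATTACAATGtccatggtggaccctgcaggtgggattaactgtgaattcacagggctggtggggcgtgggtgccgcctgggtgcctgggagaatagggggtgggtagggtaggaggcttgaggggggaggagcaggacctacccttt
Read on the minus strand the capitals are CATTGT, 1 base and ATGCAAA, and they end 137 bases before the start site. Searched on both strands in windows from 250 bases before to 50 bases after a start, this word was in 1 of the 10034 tested genes with a promoter in the RefSeq table, which is Nanog. Only 34 of the 53 risen genes have a promoter there (64.2%), against 79.6% of all genes tested. Words were counted per gene group, but no comparison is drawn from so partial a set. A match in letters is a description and not evidence of binding.

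Naive pluripotency transcription factors were higher in late DOX throughout. All 17 members tested had positive steps in both genotypes. Of all 12610 genes tested 6045 had a positive step in WT and 5204 in flox/- cells. At least 2-fold higher in both were 15 of the 17, against 2.88% of all genes tested. Called were 3 of the 17 (Tfcp2l1, Prdm14 and Tcl1), against 0.42% of all genes tested. The median difference was 2.97, against -0.07 over all genes tested. Tfcp2l1, a naive factor downstream of LIF, rose from 7.01 to 11.10 in WT and from 7.05 to 12.02 in flox/- cells (4.53 ± 0.30, adjusted p = 0.016). Prdm14, which restrains DNA methylation in naive cells, rose from 4.71 to 8.21 and from 5.36 to 9.71 (3.93 ± 0.38, adjusted p = 0.034). Tcl1, a co-activator of Akt kinase, rose from 5.02 to 8.88 and from 5.71 to 8.80 (3.47 ± 0.30, adjusted p = 0.029).

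Several naive factors had large steps and did not pass, most of them with a higher day 4 value in flox/- cells. Esrrb, an orphan nuclear receptor of the naive network, had signals of 4.54 and 10.36 in WT and of 7.10 and 11.45 in flox/- cells (5.09 ± 0.66, adjusted p = 0.059). Nr0b1 had 6.92 and 11.24 in WT and 9.86 and 12.10 in flox/- cells (3.28 ± 0.71, adjusted p = 0.129). The WT and flox/- steps were 4.07 and 2.03 for Sall4, 2.97 and 1.87 for Zscan10, and 2.36 and 1.36 for Mybl2. For these 5 genes WT day 4 was the lower of the day 4 arrays. Zfp42 (Rex1) went the other way, with steps of 1.95 in WT and 4.08 in flox/- cells and a WT day 11 signal of 6.67 against 10.07 in flox/- day 8. Gbx2 had steps of 0.49 and 2.11, Klf5 of 2.06 and 2.65, Klf2 of 2.49 and 2.32, Tbx3 of 2.51 and 3.42, Nr5a2 of 3.41 and 3.04, Zfp57 of 1.44 and 1.48, and Zfp281 of 0.44 and 0.86.

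Of the embryonic and pluripotent cell markers, 27 of 28 measured were tested and 9 were called higher, against 0.42% of all genes tested: Dppa5a, Tdgf1, Dppa2, Trap1a, Fbxo15, Dnmt3l, Alpl, Gdf3 and Fgf4. The median difference was 2.74. Fbxo15, an F-box gene that Oct4 and Sox2 bind, rose 12.5-fold in WT and 18.1-fold in flox/- cells (3.91 ± 0.25, adjusted p = 0.016). Fgf4, a growth factor gene also bound by both factors, rose from 7.30 to 10.42 and from 7.98 to 10.33 (2.74 ± 0.26, adjusted p = 0.034).

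Markers that did not pass included genes with unequal day 4 levels and genes with unequal late levels. Utf1, a chromatin factor of undifferentiated cells, was at 5.35 in WT day 4 and 9.51 in flox/- day 4, and at 11.39 and 11.58 in late DOX. Dppa3, a maternal factor that protects DNA methylation in the zygote, went from 4.27 to 8.13 in WT and from 4.50 to only 4.78 in flox/- cells. Lin28a, which blocks let-7 microRNAs, had signals of 5.66 and 8.35 in WT and of 7.61 and 7.98 in flox/- cells. In Utf1 and Lin28a the day 4 arrays were further apart than the late arrays, and in Dppa3 the reverse.

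The further markers had these steps in WT and flox/- cells, none of them called. Lncenc1, a non-coding RNA, had 5.04 and 4.23, Ooep 3.25 and 4.92, Dppa4, the partner of Dppa2, 3.02 and 3.78, and Jam2 2.16 and 3.55. Sox15 had 3.67 and 1.52, Foxd3 1.22 and 2.77, Mkrn1 1.70 and 2.28, Phc1 1.29 and 1.23, and Apela 1.82 and -0.08. Steps were 1.91 and -0.28 for Eras, 0.38 and 0.62 for Trim28, 0.60 and 0.23 for L1td1, 0.73 and -0.01 for Aire, 0.89 and -0.51 for Lin28b, and 0.40 and -0.39 for Slc7a3. The 5 genes with a negative flox/- step in this list all had positive WT steps.

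Nodal signalling, which acts through Cripto and activin receptors on Smad2 and Smad3, was represented by 16 measured genes. Of the 14 bright enough for the test, 4 were called higher (0.42% of all genes tested were) and none lower. These were Lefty2 and Foxh1, with Tdgf1 and Gdf3, which are already counted among the embryonic markers above. The median difference was 1.32 over the tested and 0.68 over the measured genes. Among ligands and inhibitors, Gdf3 rose from 7.43 to 10.18 in WT and from 7.90 to 10.69 in flox/- cells (2.78 ± 0.21, adjusted p = 0.024). Lefty2, a feedback inhibitor of Nodal, rose from 3.78 to 8.13 and from 4.29 to 7.58 (3.82 ± 0.39, adjusted p = 0.038), with iPSC higher still at 10.05 and 9.16. Foxh1, the forkhead partner of Smad2, rose from 4.99 to 8.09 and from 5.48 to 8.14 (2.88 ± 0.23, adjusted p = 0.026). Nodal itself had steps of 1.65 and 3.02, and Lefty1 of 2.83 and 1.09, and neither passed. The receptors and Smads had small steps, such as -0.09 in WT and 0.38 in flox/- cells for Smad2.

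Of 14 formative and primed epiblast genes tested, out of 18 measured, 2 were called higher, Krt18 and Otx2, and none lower. Of all genes tested 0.42% were called higher and 0.0555% lower. The median difference was 0.64 over the tested and 0.0073 over the measured genes. Otx2, a homeobox factor of the formative state, rose from 4.73 to 6.73 in WT and from 5.08 to 7.66 in flox/- cells (2.29 ± 0.25, adjusted p = 0.049). Zic5 had steps of 1.89 and 1.92 and did not pass. Cdh2, the mesenchymal cadherin that also marks primed cells, went from 10.10 to 7.28 in WT and from 9.28 to 7.02 in flox/- cells (-2.54 ± 0.38, adjusted p = 0.078).

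Among 12 DNA methylation enzymes and cofactors only Dnmt3l, already counted among the embryonic markers, was called, and it was higher, against 0.42% of all genes tested. Dnmt3l, the catalytically inactive partner of the de novo methyltransferases, rose from 4.50 to 7.79 in WT and from 4.89 to 8.71 in flox/- cells (3.55 ± 0.25, adjusted p = 0.018). Dnmt3b, a de novo methyltransferase, had signals of 6.36 and 8.47 in WT and of 6.71 and 8.49 in flox/- cells (1.94 ± 0.28, adjusted p = 0.074). The other de novo enzyme, Dnmt3a, had steps of -0.49 and -0.76. The TET oxidases, which remove methylation, split: Tet1 had 9.34 and 11.81 in WT and 10.80 and 12.54 in flox/- cells (2.11 ± 0.40, adjusted p = 0.109), while Tet3 had 8.58 and 7.41 in WT and 8.36 and 6.20 in flox/- cells (-1.66 ± 0.39, adjusted p = 0.145). Tet2 had steps of 0.80 and 0.51. Among maintenance genes the steps were 0.34 and 0.22 for Dnmt1, 0.66 and 0.36 for Uhrf1, 0.61 and 0.81 for Hells, and -0.19 and -0.96 for Uhrf2.

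Of 29 Polycomb and histone modifier genes 1 was called, and it was higher, against 0.42% of all genes tested. This was Cbx7, the chromobox subunit that predominates in the Polycomb complex of embryonic stem cells. It rose from 7.19 to 10.01 in WT and from 7.87 to 10.32 in flox/- cells (2.63 ± 0.22, adjusted p = 0.027). Mtf2 and Jarid2, accessory subunits of PRC2, had steps of 1.79 and 2.01 and of 1.22 and 1.70, and the Mtf2 difference of 1.90 ± 0.27 had an adjusted p of 0.0695. Kdm5b, Suz12 and Phc1 had positive steps in both genotypes, between 0.77 and 1.35.

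Of 15 NuRD genes 1 was called, Chd3, and it fell, against 0.0555% of all genes tested. Chd3 encodes an ATPase of the complex that is used in place of its paralog Chd4. Its signal went from 10.39 to 8.49 in WT and from 9.52 to 7.76 in flox/- cells, with iPSC at 7.96 and 7.37 (-1.83 ± 0.19, adjusted p = 0.041). The WT and flox/- folds of Chd3 were 3.73 and 3.37. Mbd3 had signals of 9.67 and 9.49 in WT and of 9.11 and 8.85 in flox/- cells (-0.21 ± 0.16, adjusted p = 0.482). Mta3 had steps of 0.67 and 0.93 and Cdk2ap1 of -0.51 and -0.64, and the median difference of the list was -0.06, close to the -0.07 of all genes tested.

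Of 28 germline and methylation-sensitive genes measured, 23 had positive steps in both genotypes. Of all 12610 genes tested 6045 had a positive step in WT and 5204 in flox/- cells. The median difference of the 28 genes was 0.79, and their median step was 0.37 in WT and 1.14 in flox/- cells. Only 20 of the 28 were bright enough on some array for the limma test. A gene near background at day 4 passes that filter only where it is higher later or in MEF, so their median difference of 1.47 is given as a description. None was called, and 10 were higher at an unadjusted p under 0.05, against 1158 of all 12610 genes tested. Dazl, an RNA-binding protein of germ cells, went from 4.58 to 6.63 in WT and from 4.69 to 10.36 in flox/- cells, with iPSC at 8.84 and 10.59 (3.86 ± 0.93, adjusted p = 0.147). Sycp3, of the meiotic chromosome axis, had steps of 0.77 and 3.59, Hormad1 of 1.07 and 3.47, and Rnf17 of 1.27 and 3.34. Tdrd12 had the reverse order, with 3.62 in WT and 1.86 in flox/- cells, and Hormad2 had 1.58 and 2.36. Outside the list, Rec114, a gene for meiotic strand breaks, rose 11.9-fold in WT and 6.22-fold in flox/- cells (3.11 ± 0.27, adjusted p = 0.029).

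The probe annotation names 287 microRNA genes. The labels describe a labelling kit for the 3′ ends of polyadenylated RNA, so which RNA of these loci the probe sets read is not settled, and they are not a measure of the mature arm. Of these 92 were bright enough to be tested, and 1 was called higher and 0 lower in the limma fit, against 0.42% and 0.0555% of all genes tested. At an unadjusted p under 0.05 in that fit 7 were higher and 13 lower, against 1158 and 1456 of all 12610 genes tested. The called gene is Mir363, of an X-linked cluster expressed in embryonic stem cells. Its signal went from 3.87 to 6.11 in WT and from 3.78 to 6.92 in flox/- cells, with iPSC at 6.85 and 6.78 (2.68 ± 0.27, adjusted p = 0.038). Its mature arm is shown, 5′ to 3′ and from RefSeq (GRCm38.p6, minus strand, chrX:52741697-52741718), beside arms of the miR-25 and miR-92 genes that share its seed, bases 2 to 8, in capitals.
miR-363-3p: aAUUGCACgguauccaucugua
miR-25-3p: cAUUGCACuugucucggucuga
miR-92a-3p: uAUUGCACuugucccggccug
The seed AUUGCAC is the same in all 3. Mir25 had steps of 0.06 in WT and 1.08 in flox/- cells and did not pass.

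A second microRNA family of pluripotent cells was seen in WT late DOX only as a description, since its probe sets were too dim for the test. Over WT day 4, day 11 and iPSC the Mir302b signals were 3.80, 5.88 and 3.77, and over the matching flox/- stages 3.77, 3.96 and 3.75. Mir302d had 3.96, 5.84 and 4.01 in WT and 3.94, 4.41 and 4.02 in flox/- cells, and Mir302a and Mir302c had WT steps of 1.30 and 1.78. For all 4 genes WT day 11 was the highest of the 4 DOX arrays. The arms shown are from chromosome 3, plus strand, at chr3:127545275-127545297 and chr3:127545665-127545687, and share the seed AAGUGCU of the embryonic stem cell microRNAs.
miR-302b-3p: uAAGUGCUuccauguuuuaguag
miR-302d-3p: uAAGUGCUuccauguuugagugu

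The microRNA genes of the imprinted Dlk1-Dio3 region, expressed from the maternal copy in fibroblasts, were lower in late DOX. Of 40 measured, 38 had negative steps in both genotypes, with medians of -0.59 in WT and -0.26 in flox/- cells. Of all 12610 genes tested 6557 had a negative step in WT and 7402 in flox/- cells. The 21 of the 40 bright enough for the test had medians of -0.83 and -0.42. In the limma fit 0 were called, and 10 were lower at an unadjusted p under 0.05, against 1456 of all 12610 genes tested. Mir382 went from 7.58 to 5.19 in WT and from 7.15 to 6.13 in flox/- cells, and Mir377 from 6.71 to 4.49 and from 6.45 to 5.42. The long non-coding RNAs of the region had the same order of steps, with -2.57 and -0.67 for Meg3 and -3.01 and -1.56 for Rian. Their lower WT late level was present at WT iPSC too, where Rian was at 5.48 against 6.71 in flox/- iPSC. A mature arm of Mir382 and of Mir377 is shown to give examples from the region, at chr12:109733781-109733802 and chr12:109740553-109740574, plus strand. Their seeds differ from each other and from those above.
miR-382-5p: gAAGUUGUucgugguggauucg
miR-377-3p: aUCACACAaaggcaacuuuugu

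The 7 called falls were of modest size and close in both genotypes. Foxd1, a forkhead factor of stromal mesenchyme, fell from 9.60 to 7.09 in WT and from 9.37 to 6.22 in flox/- cells, and iPSC were at 6.06 and 5.60 (-2.83 ± 0.28, adjusted p = 0.034). Cacna2d1, a calcium channel subunit gene, fell from 9.59 to 7.77 and from 9.68 to 7.30 (-2.10 ± 0.20, adjusted p = 0.034). In both genes late DOX had already reached within about 1 log2 unit of iPSC. Hoxb2 fell from 8.25 to 6.72 and from 8.16 to 6.21 (-1.74 ± 0.19, adjusted p = 0.045). Ripor2, an inhibitor of RhoA, fell 3.03-fold in WT and 3.15-fold in flox/- cells, and Syt11, a synaptotagmin gene, 2.76-fold and 2.92-fold. Tmem229b, a membrane protein gene, fell 2.95-fold and 4.61-fold from a day 4 level that was above MEF in both genotypes.

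Larger falls did not pass, and their size differed between the genotypes. For the 15 largest falls with the same sign in both, the median SE was 0.86, against 0.25 for the 53 risen genes and 0.23 over all genes tested. The risen genes passed a test that favours a small SE, while these falls were ranked by size alone. These medians are thus no like comparison of rises with falls. Prrx1, a limb mesenchyme factor, was at 11.41 and 10.04 in WT and at 10.68 and 6.01 in flox/- cells (-3.02 ± 1.09, adjusted p = 0.219). Cd44, the hyaluronan receptor, was at 10.35 and 9.21 in WT and at 10.32 and 5.52 in flox/- cells (-2.97 ± 0.95, adjusted p = 0.195). Lyz2, lysozyme of macrophages, was at 11.69 and 9.76 and at 8.97 and 4.57 (-3.16 ± 1.31, adjusted p = 0.256), and Hbb-y, an embryonic globin gene, at 5.36 and 4.57 and at 9.60 and 4.37 (-3.01 ± 1.14, adjusted p = 0.232). In Prrx1 and Cd44 the day 4 arrays were close and the late arrays apart, and in Hbb-y the reverse.

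Fibroblast matrix genes showed this split as a group. Of 41 tested, 40 had a negative difference, against 57.3% of all genes tested. At least 2-fold lower were 22 in WT, 34 in flox/- cells and 20 in both, against 5.84%, 12% and 3% of all genes tested. None was called by limma, and 11 were lower at an unadjusted p under 0.05, against 1456 of all 12610 genes tested. The median step was -1.04 in WT and -2.33 in flox/- cells, against -0.02 and -0.13 over all genes tested. Fbln2 had steps of -2.06 and -3.42, Col12a1 of -1.37 and -3.48, and Lox, which cross-links collagen, of -1.49 and -3.27. Tnc, the matrix protein tenascin C, was nearly even, with -2.34 and -2.37, and Aspn had -1.60 and -2.95. The fibroblast marker median of WT iPSC, at 9.41, was also above that of flox/- iPSC, at 6.39, and both stages were grown on feeder fibroblasts. The part of feeder RNA in these values was not tested.

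Of 26 mesenchymal transcription factors 24 had a negative difference and 1, Foxd1, was called lower, against 57.3% and 0.0555% of all genes tested. The median steps were -1.01 in WT and -1.19 in flox/- cells. Osr1 had steps of -2.73 and -2.84, and Zeb2, a repressor of E-cadherin, of -1.89 and -2.28. Tbx15 had -1.28 and -4.36, and Meox2, a homeobox factor of limb mesenchyme, -0.30 and -3.60. In Osr1 and Zeb2 the genotypes moved by nearly the same amount, whereas in Tbx15 and Meox2 the flox/- step was the larger.

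All 28 Hox genes tested, of 30 measured, had a negative difference, against 57.3% of all genes tested, although 5 had a positive step in WT. Hoxb2 was called lower, 1 of 28 against 0.0555% of all genes tested. The median was -0.88. At least 2-fold lower were 12 in WT, 19 in flox/- cells and 10 in both, against 5.84%, 12% and 3% of all genes tested. Hoxc5 went from 8.59 to 6.14 in WT and from 7.84 to 5.58 in flox/- cells (-2.35 ± 0.29, adjusted p = 0.052), and Hoxc6 from 8.92 to 6.76 and from 8.37 to 5.40 (-2.56 ± 0.34, adjusted p = 0.064). Hoxc8 had steps of -2.36 and -2.61, Hoxa5 of -2.07 and -1.45, and Hoxa2 of -1.90 and -1.28. In these 5 Hox genes both late arrays were below both day 4 arrays, with the smallest gap in Hoxa5, at 6.94 in flox/- day 4 and 6.76 in WT day 11. The 5 were named for the size of their difference, which favours such a gap. It was not counted over the other Hox genes or all genes tested.

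Contractile and TGF-beta genes had smaller median differences than the -1.61 of the matrix genes. The 16 smooth muscle and contractile genes had a median level of 11.91 in WT MEF, 9.46 at day 4 and 8.38 at day 11, and a median difference of -0.55. Cnn1, calponin, had steps of -2.43 and -0.89, Actg2 of -1.45 and -2.44, and Myl9 of -1.92 and -1.69. Among the 21 TGF-beta genes, with a median of -0.73, Ltbp1, which holds the ligand in the matrix, had steps of -1.66 and -2.67, and the ligand gene Tgfb2 of -2.05 and -1.75. Smad7, an inhibitor of the pathway, stood apart with 0.56 and 2.79. No gene of either list was called by limma, while at an unadjusted p under 0.05 3 contractile genes were lower, and 4 TGF-beta genes were lower and 1 higher. Of all 12610 genes tested 1456 were lower and 1158 higher at that cut.

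Genes of macrophages and other blood cells had the larger median step in WT, where their day 4 level was higher. All 24 tested had negative steps in WT, with a median of -1.73, and 16 had negative steps in flox/- cells, with a median of -0.31. Of all 12610 genes tested 6557 had a negative step in WT and 7402 in flox/- cells. None of the 24 was called by limma, and 11 were lower at an unadjusted p under 0.05, against 1456 of all 12610 genes tested. C1qb, of the complement, was at 10.74 and 7.09 in WT and at 6.85 and 5.24 in flox/- cells, after MEF values of 11.56 and 10.90. C1qc had steps of -3.77 and -0.80, Fcer1g of -2.96 and -0.62, Tyrobp of -2.57 and -1.08, and Cd53 of -2.38 and -1.44. In all 5 genes the flox/- day 4 signal, between 6.07 and 6.85, was below the WT day 4 signal, between 8.53 and 10.74, and C1qb, Tyrobp and Cd53 were still at least 2-fold lower in flox/- late DOX. Other members differed. Lyz2, given above, had the larger step in flox/- cells. Cd68, with steps of -0.37 in WT and 1.18 in flox/- cells, was 1 of 8 members with a positive flox/- step.

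Some genes were higher at day 4 than in both MEF and late DOX in each genotype. A rule chosen after the values were seen, more than 2-fold above both MEF and late DOX in each genotype, found 33 genes. Of these 1, Tmem229b, was called lower, against 0.0555% of all genes tested. Aldh1a1, a retinaldehyde dehydrogenase, was at 7.56 in WT MEF, 9.18 at day 4 and 6.51 at day 11, and at 6.82, 10.04 and 5.13 at the matching flox/- stages (-3.79 ± 0.54, adjusted p = 0.071). Aldh3a1, another aldehyde dehydrogenase, was at 4.72, 10.47 and 8.60 in WT and at 4.97, 8.998 and 4.90 in flox/- cells (-2.99 ± 0.97, adjusted p = 0.197). Avil, the actin-binding protein advillin, was at 6.31, 9.14 and 7.97 and at 5.96, 10.43 and 5.52 (-3.04 ± 0.84, adjusted p = 0.169), and Mfsd2a, a lipid transporter, at 6.80, 8.80 and 7.01 and at 7.65, 9.44 and 5.26 (-2.99 ± 0.65, adjusted p = 0.130). Kcnma1, a potassium channel gene, was at 7.03 in WT MEF, 13.45 at day 4 and 12.001 at day 11, and at 9.24, 12.42 and 8.06 in flox/- cells. The rule itself puts late DOX below day 4 within each genotype. For these 5 genes, picked for large falls, each late array was also below the day 4 array of the other genotype. That was not counted over all genes tested. For Aldh3a1, Avil and Kcnma1 the WT day 11 array was still more than 1 log2 unit above WT MEF. The left-out WT day 8 array was above WT day 4 for Aldh1a1 (9.35), Aldh3a1 (11.61), Avil (9.49) and Mfsd2a (9.81), and below it for Kcnma1 (9.45).

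Other genes were highest in late DOX. By the mirror rule, also chosen after the values were seen, 20 genes were more than 2-fold higher in late DOX than in MEF, day 4 and iPSC in both genotypes. Of these 4 were called higher, against 0.42% of all genes tested: Krt18, Clec2i, Nxf7 and Klhl13. The rule itself asks for a rise over day 4 in both genotypes, which favours a call. Krt18, a keratin of simple epithelia, was at 6.30 and 10.98 in WT and at 7.15 and 10.18 in flox/- cells, with iPSC back at 6.50 and 7.08 (3.85 ± 0.43, adjusted p = 0.0494). Clec2i, a C-type lectin gene, went from 4.60 to 8.52 and from 4.84 to 8.59, with iPSC at 5.07 and 5.17 (3.84 ± 0.17, adjusted p = 0.005). Nxf7, of a family of nuclear RNA export factors, went from 4.32 to 8.46 and from 4.53 to 7.66, with iPSC at 4.48 and 5.09 (3.64 ± 0.35, adjusted p = 0.034). On the 8 arrays of the fit these 3 genes were highest in late DOX, while the left-out WT day 8 array had a Krt18 signal of 10.22. Among the uncalled genes of this course, Plac1, of the placenta, had steps of 3.57 and 2.10, Syna, a placental fusion protein, of 2.38 and 1.03, Car4, a carbonic anhydrase, of 5.81 and 2.18, and Phlda2, an imprinted placental gene, of 5.37 and 1.43.

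Of 16 trophoblast genes measured, 9 had positive steps in both genotypes, with a median difference of 0.83 and median steps of 1.23 in WT and 0.25 in flox/- cells. Of all 12610 genes tested 6045 had a positive step in WT and 5204 in flox/- cells. The 11 of the 16 bright enough for the test had a median difference of 1.34, and 4 of them had a negative flox/- step. None was called by limma, and 5 were higher at an unadjusted p under 0.05, against 1158 of all 12610 genes tested. Rhox9, an X-linked homeobox gene, was at 5.85 and 9.77 in WT and at 6.02 and 8.18 in flox/- cells. Krt7 had steps of 3.35 and 0.80, Rhox6 of 2.18 and 0.54, and Gata2 of 2.08 and 2.04. Tfap2c was at 5.21 and 9.21 in WT and at 8.24 and 7.71 in flox/- cells, so its flox/- level was already high at day 4. The defining trophoblast markers Cdx2, Elf5 and Tpbpa were below the array median on all 4 DOX arrays.

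Epithelial junction genes had larger steps in WT, a difference that was not tested. Of 30 tested, 25 were at least 2-fold higher in WT late DOX and 10 in flox/- late DOX, 9 in both, against 5.84%, 7.65% and 2.88% of all genes tested. The median steps were 2.48 and 0.55. Krt18, already counted among the formative and primed genes, and Spint1 were called higher, 2 of 30 against 0.42% of all genes tested. Spint1, an epithelial protease inhibitor, rose from 8.38 to 10.70 in WT and from 9.13 to 11.02 in flox/- cells (2.10 ± 0.18, adjusted p = 0.029). Outside the list, Llgl2, a cell polarity gene, rose from 5.86 to 9.09 and from 7.01 to 9.43 (2.83 ± 0.29, adjusted p = 0.041). Dsg2, a desmosomal cadherin, was at 4.60 and 9.003 in WT and at 6.15 and 9.69 in flox/- cells (3.97 ± 0.48, adjusted p = 0.052). Claudin and adhesion genes had larger WT steps, with 5.67 and 1.72 for Cldn6, 4.54 and 1.27 for Cldn4, and 4.04 and 1.62 for Epcam. Their flox/- day 4 levels of 7.84, 8.97 and 7.93 were above the WT day 4 levels of 6.16, 6.88 and 6.60.

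Among all genes tested, the 10 with the largest WT step minus flox/- step included Esrp1 and Dsp of the epithelial junction list. Of the 10, 9 were at least 2-fold apart in opposite directions, against 0.452% of all genes tested. Ranking by the difference between steps itself favours opposite directions and a flox/- day 4 signal above that of WT day 4. Esrp1, a splicing regulator of epithelial cells, was at 4.82 and 9.52 in WT and at 7.93 and 6.40 in flox/- cells. Dsp, which encodes desmoplakin, was at 7.71 and 10.35 in WT and at 10.98 and 8.49 in flox/- cells. In both genes the flox/- day 4 and WT day 11 arrays were the higher ones, and MEF of both genotypes were lower than either. Foxi3, a forkhead factor of ectodermal placodes, was at 5.75 and 8.92 in WT and at 8.54 and 6.19 in flox/- cells, and Plet1 at 7.20 and 10.63 and at 8.78 and 7.05. The same crossing was seen in 2610528A11Rik, Cyp2s1, Bmp8b, Dkkl1 and Lipg, and their signals on the left-out WT day 8 array were 11.41, 11.28, 10.77, 11.42 and 8.50, above all 4 arrays of the step. Ceacam2, a cell adhesion gene, differed, with 4.95 and 10.15 in WT and 5.41 and 5.11 in flox/- cells.

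**Figure D3:**
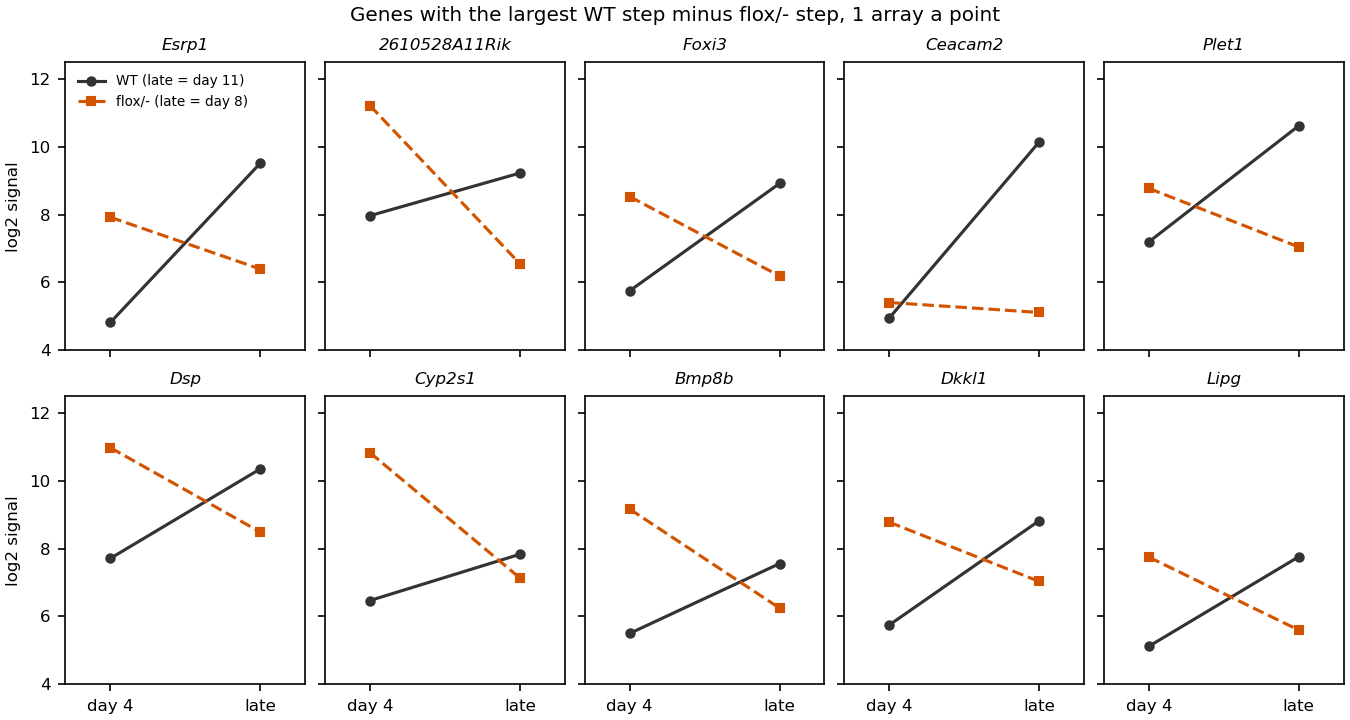
Log2 signal (y axis) at day 4 and late DOX (x axis) of the 10 genes with the largest WT step minus flox/- step, 1 array a point, with WT as black circles (late is day 11) and flox/- as orange squares (late is day 8). In 9 of the genes the WT line goes up and the flox/- line goes down, and Ceacam2 is near background on all but WT day 11.

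Keratinocyte and stratified epithelial genes shared the flox/- side of this pattern. Of 12 tested, out of 25 measured, 9 were at least 2-fold lower in flox/- late DOX, against 12% of all genes tested, and none in WT, with median steps of -1.92 in flox/- cells and 0.18 in WT. A gene near background elsewhere passes the filter of the test only through an array where it is high, such as flox/- day 4. A fall from that array is then favoured, so these counts and medians are given as a description. Over the 25 measured the median steps were -0.79 and 0.011. None was called by limma, and 1 was higher at an unadjusted p under 0.05, against 1158 of all 12610 genes tested. Krtdap was at 9.09 in flox/- day 4 and between 4.57 and 4.77 on the other 3 arrays, and Klk10, a kallikrein gene, was at 9.33 and between 5.96 and 6.14. Krt6b, a keratin of activated epidermis, was at 6.74 and between 3.95 and 4.06, and Krt14, of basal epidermis, at 7.73 and between 5.34 and 6.11. Of the 4 arrays of the step, each of these genes was thus high on flox/- day 4. On the left-out WT day 8 array they were higher still, at 10.53 for Krtdap, 12.21 for Klk10, 9.28 for Krt6b and 12.18 for Krt14, and the median of the 12 genes was 11.73 there against 7.98 on flox/- day 4. Without the flox/- day 4 array the median difference of the list was 0.04 instead of -0.82.

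At the other end, 10 genes had a flox/- step far above the WT step. Nckap1l, an actin regulator of blood cells, was at 8.07 and 6.46 in WT and at 6.14 and 9.89 in flox/- cells, with iPSC at 8.97 and 10.18. Zfp980, a zinc finger gene, was at 4.10 and 7.57 in WT and at 3.80 and 11.27 in flox/- cells, and its iPSC levels of 10.68 and 11.20 show that the WT day 11 array was part of the way. Sgk1, a kinase of the phosphoinositide pathway, was at 7.37 and 8.39 and at 5.25 and 10.26, and Eya1, a phosphatase and co-activator, at 9.07 and 8.12 and at 6.37 and 9.66. Accsl had flox/- signals of 4.40 and 9.53 and WT signals of 4.45 and 4.96, and Olfr153 had 4.01 and 9.40 against 4.07 and 5.21. Zfp979, Samd9l, Klf4 and Caps2 complete the 10. With 1 array on each side and late days that differ, none of these differences between steps was tested.

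The further lists are given by their counts and medians. Of 30 DNA replication and mitosis genes, 26 had positive steps in WT and 16 in flox/- cells, against 6045 and 5204 of all 12610 genes tested. The medians of the 30 were 0.36 and 0.05, and the licensing gene Cdt1 had 1.17 and 0.46. The 18 glycolysis genes had medians of -0.03 in WT and -0.80 in flox/- cells, where 8 were at least 2-fold lower, against 12% of all genes tested. Ldha, lactate dehydrogenase, was at 12.90 and 12.79 in WT and at 13.22 and 11.05 in flox/- cells, and Slc16a3, a lactate exporter, had steps of 0.18 and -4.17. Slc2a3, a glucose transporter of pluripotent cells, went the other way in both, from 10.30 to 12.73 and from 10.77 to 12.81 (2.23 ± 0.35, adjusted p = 0.081). No gene of the 2 lists was called by limma, and at an unadjusted p under 0.05 each had 2 genes higher and 2 lower. Of all 12610 genes tested 1158 were higher and 1456 lower at that cut.

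The 27 respiratory chain genes had medians of 0.05 and -0.20, with Cox7a1 apart at 0.85 and 2.12. The 17 interferon-stimulated genes had medians of 0.26 and -0.36, and the 9 MHC class I genes of -0.29 and -0.49. Among the MHC class I genes, B2m was at 12.58 and 12.09 in WT and at 12.15 and 9.53 in flox/- cells. Senescence and p53 genes, 18 in number, had medians of -0.21 and -0.44, with steps of -0.36 and -1.50 for Cdkn2a, a cell cycle inhibitor, and of -2.52 and -2.35 for Igfbp5. The 12 primitive endoderm genes had medians of -0.42 and -0.73, and Gata6, the factor that defines that lineage, had steps of -1.45 and -1.53. A negative difference was seen in 22 of the 27 respiratory chain, 8 of the 9 MHC class I and 10 of the 12 primitive endoderm genes. It was seen in 7 of the 17 interferon-stimulated and 12 of the 18 senescence and p53 genes, and in 57.3% of all genes tested.

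Neural genes, 12 in number, had medians of -0.59 and -1.05, with -1.89 and -2.61 for Map2 and -1.27 and -3.53 for Syt1. A negative difference was seen in 11 of the 12, against 9 of the 18 imprinted genes and 57.3% of all genes tested. Of 7 endothelial genes, Pecam1, an adhesion gene that pluripotent cells also express, had signals of 5.25 and 7.97 in WT and of 5.74 and 9.26 in flox/- cells (3.12 ± 0.39, adjusted p = 0.055). The 18 imprinted genes had medians of -0.13 and 0.06, with Igf2 at 1.84 and 0.38 and Peg3 at 2.12 and 0.03. Only 3 of the 2-cell-like genes were bright enough for the test, and their differences lay between -0.03 and 0.41. No gene of the lists in this paragraph and the one before it was called by limma. At an unadjusted p under 0.05 the largest counts were 6 neural genes lower, 4 imprinted genes lower and 3 endothelial genes higher. Of all 12610 genes tested 1456 were lower and 1158 higher at that cut.

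**Figure D4:**
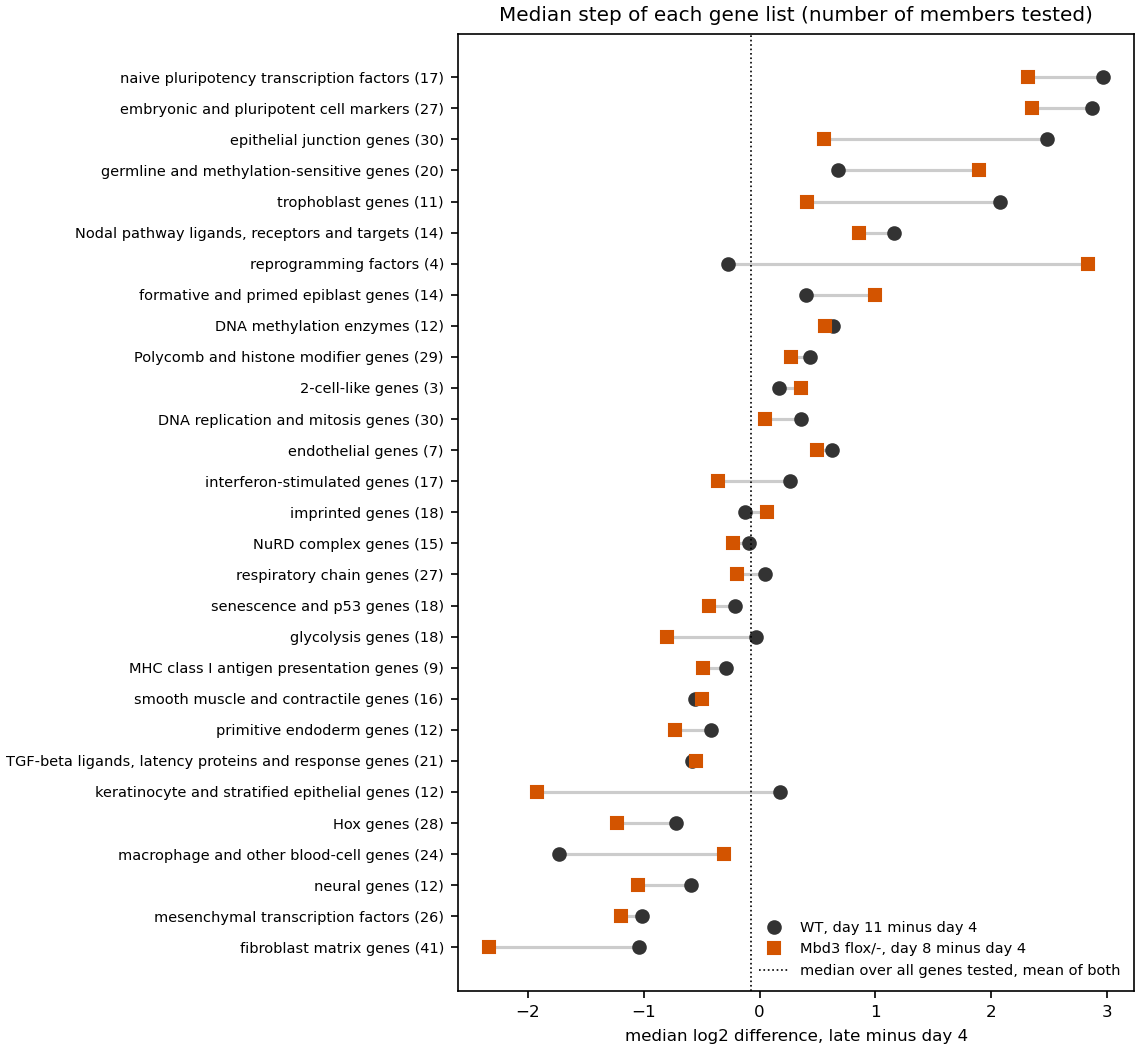
Median step (x axis, log2 difference of late DOX minus day 4) of the tested members of each gene list (y axis, with their number), WT as black circles and flox/- as orange squares, and the median over all genes tested as a dotted line. The naive factors and embryonic markers lie to the right for both genotypes, the fibroblast matrix genes furthest to the left for flox/-, and the keratinocyte, epithelial junction and reprogramming factor lists have the genotypes far apart.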

How the data were processed

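RNA was extracted with TRIzol and labelled with biotin by a 3′ kit for Affymetrix 3′ expression arrays, per the labels' protocols, while the probe annotation is that of a whole-transcript gene array. Which was used is not settled by the sources used here. The values deposited by the authors are log2 signals (3.11 to 13.99) of 35512 probe sets on 12 arrays, and 0 columns were left out. How they were summarised and normalized is not given in the sources used here. Array medians differed by 0.122, above the limit of 0.1, so all 12 arrays were quantile normalized.

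Probe sets with 1 symbol were kept, and the one with the highest mean stood for each of 19938 genes. The 12610 genes above the array median on at least 1 of the 8 arrays of the fit were tested with limma 3.58.1 in R 4.3.3 (stage and genotype as terms, Benjamini-Hochberg adjustment). Arrays have no sequencing depth, and their number limits the precision. At least 2-fold means a log2 step beyond 1.

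Named were the called genes with the largest changes (up to 15 each way, with uncalled falls added), up to 6 members of each list by size, all members of 4 lists, the 10 genes at each end of the step difference, and Mbd3. Genes outside this rule, among them the microRNAs, the further called genes and the genes highest at a single stage, were named after their values were seen. The arrays, lists and tests were chosen with earlier results of these data known.

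The labels give no replicate numbers, and the genotype term pairs arrays by genotype only. Alternatives were other normalization, filters, arrays, terms, variance priors and probe set rules, and each of the 8 arrays left out. The script was tested on simulated data.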

Additional observations from a re-analysis of the deposited data

Results flagged for a closer look

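For 10 genes the step from day 4 to late DOX was at least 2-fold up in one genotype and at least 2-fold down in the other, among the 10 largest differences between steps at each end. Each side is 1 array, the late days differ between the genotypes, and the difference was not tested. The WT step minus the flox/- step was 6.23 log2 units for Esrp1 (4.70 and -1.53), 5.93 for 2610528A11Rik (1.26 and -4.67), 5.51 for Foxi3 (3.17 and -2.34), 5.16 for Plet1 (3.43 and -1.73) and 5.13 for Dsp (2.64 and -2.49). It was 5.06 for Cyp2s1 (1.36 and -3.70), 4.98 for Bmp8b (2.06 and -2.92), 4.83 for Dkkl1 (3.08 and -1.75) and 4.80 for Lipg (2.64 and -2.15). For Nckap1l it was -5.37 (-1.62 and 3.75), the only one of the 10 with the higher step in flox/- cells. In the 9 other genes the flox/- day 4 array was above the WT day 4 array, an order that ranking by the difference favours.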

How the results depend on the processing

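The count of genes higher in late DOX was 53, and the count lower was 7. With values as deposited they were 73 and 11, with no filter on dim genes 29 and 4, and with genes above the array median on at least 2 arrays 79 and 13. With only the 4 DOX arrays they were 0 and 0, with all 12 arrays 120 and 40, and with the 4 DOX arrays and no genotype block, an alternative chosen after seeing the data, 0 and 0 (608 and 518 at an unadjusted p under 0.05). Without a genotype block, with a trended and robust variance prior, and with the mean of the probe sets of a gene the counts of rises were 67, 77 and 69, and those of falls 5, 7 and 9. Leaving out 1 array at a time gave 0 to 112 higher and 0 to 67 lower. Dppa5a was called in 13 of 17 alternatives, with adjusted p from 0.0002 to 0.0975, and Foxd1 in 5 of 17, from 0.0304 to 0.322.

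Of the 86 genes with a printed difference, none changed sign under the alternatives that kept all DOX arrays of the step. Most of these alternatives could not change a sign. The difference stays the mean of both steps under another filter, genotype term, variance prior or choice of further arrays. Only the values as deposited and the mean of the probe sets of a gene could move it. Over the fits without 1 array, Klf4 ranged from -0.59 to 3.16 and Myc from -1.35 to 2.08. Without a filter the median differences of the 2-cell-like genes (-0.023) and endothelial genes (-0.012) changed sign. Others came closer to 0, from 1.32 to 0.68 for Nodal genes, 1.47 to 0.79 for germline genes, 1.34 to 0.83 for trophoblast genes, 0.64 to 0.0073 for formative genes, -0.82 to -0.40 for keratinocyte genes, -1.09 to -0.52 for neural genes and -0.67 to -0.27 for primitive endoderm genes. Of the 29 list medians, 12 values under the other alternatives and 43 without 1 array moved by more than the SD of the WT and flox/- median steps without changing sign. Over the fits without 1 array the median ranged from -0.0047 to 0.32 for the 2-cell-like genes, -0.030 to 0.47 for DNA replication and mitosis genes, -0.77 to 0.54 for interferon-stimulated genes, -0.47 to 0.34 for imprinted genes, -0.094 to 2.62 for the reprogramming factors, -1.99 to 0.036 for keratinocyte genes and -0.22 to 0.025 for respiratory chain genes. The cause was not tested. Signals near background limit the folds of genes such as Dppa5a, Trap1a and Mir363.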
